A study of Mus musculus with 23 samples.

Results

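The regions described here are those enriched for H3K27ac or for H3K4me2 in the retrosplenial cortex (RSC) of adult mice, set against each other as 2 readings of the same tissue. They were chosen by their presence on the 19 autosomes in the deposited RSC lists: 40399 H3K27ac regions and 45335 H3K4me2 regions, 85734 of the 324681 autosomal regions listed for 4 cortical subregions and 2 marks. Each mark has a full list and an enhancer list, and a full-list region absent from the enhancer list is called an excluded region. A region was classed as carrying both marks when it overlapped the other mark's full RSC list by at least 1 bp, and as single-marked otherwise. The classes therefore come from the measured positions themselves, and their numbers are given as a description with no test.

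The RSC H3K27ac and RSC H3K4me2 groups had 2 libraries each, from C57BL6J mice at postnatal day 56, with 2 RSC input libraries. No genotype or treatment is given in the labels. The tissue was dissected from unstained brain sections by its architecture and frozen before chromatin was prepared, so every cell type of the dissected cortex contributed. In such bulk tissue a mark held by few cells and a weak mark held by all cells cannot be told apart, nor can marks on the same chromatin and marks from different cells at the same place. The other subregions, used here for comparison, were the anterior cingulate cortex (ACC), the lateral entorhinal cortex (LEC) and the medial entorhinal cortex (MEC), likewise with 2 libraries per mark except MEC H3K4me2 with 1. The labels do not state whether paired libraries stem from different mice. Each list combines its libraries and holds no enrichment value, so there is no spread between animals, no test over animals could be made, and the read depth is unknown. Ranges in brackets are 95% intervals over regions. They cover counting error only, and neighbouring regions are not independent. The gene table at hand is of another genome build than the lists (mm9), so regions are named by position and could not be set against marker genes of the cortex.

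RSC is a midline cortical area that links the hippocampal formation with sensory and thalamic areas and takes part in spatial memory. H3K27ac is the acetylation of lysine 27 of histone H3. It is laid down by the acetyltransferases CBP and p300 and marks promoters and enhancers in use. H3K4me2, the dimethylation of lysine 4, covers promoters and enhancers more generally, including enhancers that are primed and not in use. Chromatin with H3K4me2 and without H3K27ac is commonly read as poised or primed, and the combination of the marks as active.

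By the class rule, more than 50% of RSC enhancer regions of either mark carried both marks, and the share was higher among excluded regions. Of 23665 H3K27ac enhancer regions 13257 also carried H3K4me2, or 56.02% (55.4 to 56.7), and 10408 were H3K27ac only. Of 16734 H3K27ac excluded regions 12816 carried H3K4me2, or 76.6% (75.9 to 77.2), and 3918 did not. The background over all H3K27ac regions was 64.5%. Of 28050 H3K4me2 enhancer regions 15360 also carried H3K27ac, or 54.8% (54.2 to 55.3), and 12690 were H3K4me2 only. Of 17285 H3K4me2 excluded regions 12348 carried H3K27ac, or 71.4% (70.8 to 72.1), and 4937 did not, against 61.1% over all H3K4me2 regions. The enhancer share was below the excluded share on 19 of 19 autosomes for either mark. These statements depended on which regions and partners were counted. With the widest 50% of each list, the H3K27ac enhancer share was 46.0%. The H3K4me2 order was then the opposite, at 60.4% of enhancer and 55.6% of excluded regions. That setting also removed narrow partners, so a region whose only partners were narrow became single-marked. With partners of the same kind only, the H3K4me2 enhancer share was 48.4%. Across autosomes the H3K27ac enhancer share ran from 51.8% on chromosome 19 to 60.8% on chromosome 14 with a median of 56.3%, and the H3K4me2 enhancer share from 49.9% on chromosome 10 to 58.6% on chromosome 7 with a median of 55.2%.

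**Figure D1:**
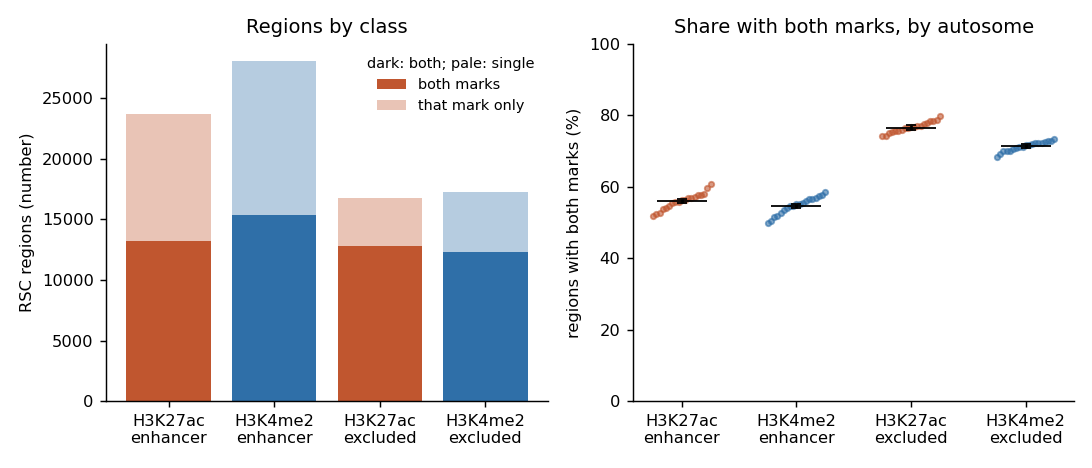
Left, the number of RSC autosomal regions per mark and kind, with regions carrying both marks in the dark part of each bar and single-marked regions in the pale part. Right, the percentage carrying both marks, with 1 dot per autosome placed in rising order and a black line for all autosomes with its 95% Wilson interval; enhancer regions sit at 56.02% (H3K27ac) and 54.8% (H3K4me2), below excluded regions at 76.6% and 71.4%.

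Among enhancer regions the marks differed more in bases than in numbers of regions. H3K27ac enhancer regions covered 67.5 Mb, of which 41.7% lay under H3K4me2, whereas H3K4me2 enhancer regions covered 53.0 Mb, of which 59.2% lay under H3K27ac. For excluded regions the values were close, at 64.2% of 73.5 Mb for H3K27ac and 61.8% of 71.2 Mb for H3K4me2. Within the H3K4me2 enhancer regions that carried both marks, 90.3% of the bases were also H3K27ac. Within the H3K27ac enhancer regions that carried both marks, 62.6% of the bases were also H3K4me2.

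The rule's limit of 1 bp decided few regions. Among H3K27ac regions with both marks 4 of 26073 shared 100 bp or less with H3K4me2, and 15 of 14326 single-marked ones had an H3K4me2 region within 100 bp, 2 of them touching it. Among H3K4me2 regions the numbers were 5 of 27708 and 15 of 17627, 3 of them touching. Most single-marked regions lay more than 5000 bp from the other mark. It was within 5000 bp of 28.8% of H3K27ac-only and 18.9% of H3K4me2-only regions. The nearest H3K4me2 region was at a median of 10.6 kb (10.2 to 10.9) from an H3K27ac-only enhancer region. The nearest H3K27ac region was at 17.8 kb (17.3 to 18.3) from an H3K4me2-only enhancer region.

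A region can also be single-marked because the other list misses it. Where ACC, LEC and MEC all listed H3K4me2, RSC listed none at 2219 of 17359 places, or 12.8% (12.3 to 13.3), and the corresponding value for H3K27ac was 1511 of 13595, or 11.1% (10.6 to 11.7). These shares were computed after the classes had been seen. They fell with the width of the ACC region, for H3K4me2 from 26.4% up to 1500 bp to 3.27% over 10000 bp. All 3 other subregions listed H3K4me2 over 421 of the 10408 H3K27ac-only enhancer regions (4.04%) and over 926 of the 3918 H3K27ac-only excluded regions (23.6%), against 31.6% of all RSC H3K27ac regions. All 3 listed H3K27ac over 385 of the 12690 H3K4me2-only enhancer regions (3.03%) and over 817 of the 4937 H3K4me2-only excluded regions (16.5%), against 27.1% of all RSC H3K4me2 regions. Whether RSC lacked the mark there or its list missed it was not tested.

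Regions with both marks were wider than single-marked ones in all 4 groups. For H3K27ac enhancer regions the median width was 2400 bp (2350 to 2425) with both marks and 1750 bp (1725 to 1775) with H3K27ac only. For H3K4me2 enhancer regions it was 1800 bp (1775 to 1825) with both marks and 1250 bp (1250 to 1275) with H3K4me2 only. The gap was largest among H3K4me2 excluded regions, at 3850 bp (3800 to 3900) with both marks and 1975 bp (1950 to 2050) without H3K27ac, a ratio of 1.95, while H3K27ac excluded regions had 3075 bp (3025 to 3125) and 2275 bp (2225 to 2325), a ratio of 1.35. In each group the order held on 19 of 19 autosomes. A wide region meets another list more easily than a narrow one, so part of this difference is built into the classes.

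**Figure D2:**
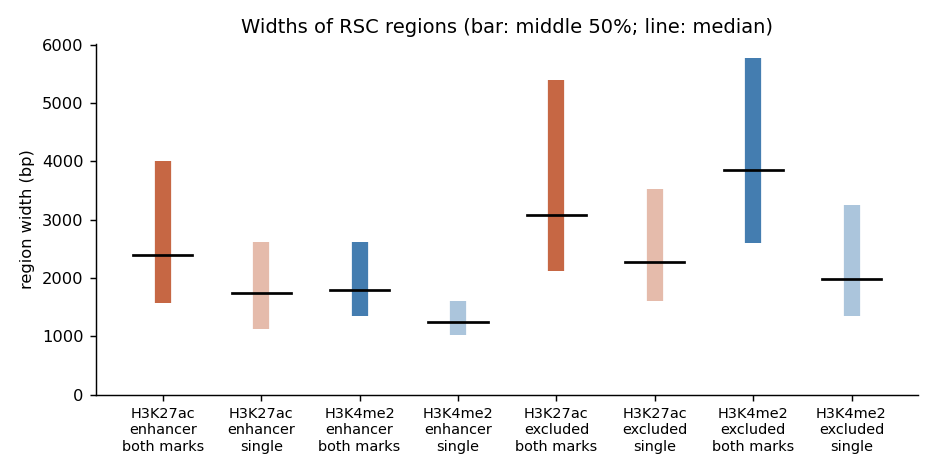
Width in bp of RSC autosomal regions by mark, kind and class, where each bar spans the middle 50% of regions and the black line is the median. Regions with both marks sit higher than single-marked ones in all 4 groups, from 1800 against 1250 bp in H3K4me2 enhancer regions to 3850 against 1975 bp in H3K4me2 excluded regions.

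The share with both marks climbed with width, and at equal width the order of enhancer and excluded regions differed between the 2 marks. For H3K27ac, enhancer regions of up to 1000 bp carried H3K4me2 in 33.9% (32.2 to 35.7) of cases and those over 10000 bp in 90.5% (87.8 to 92.6). At equal width they stayed below excluded regions: between 2000 and 3000 bp it was 56.4% (55.1 to 57.8) of enhancer and 76.4% (75.1 to 77.6) of excluded regions. For H3K4me2 the order was the opposite from 1000 bp upwards, though not below. Up to 1000 bp the shares were 29.96% (28.6 to 31.4) of enhancer and 30.9% (27.3 to 34.8) of excluded regions, whose intervals overlapped. Between 1500 and 2000 bp 63.4% (62.2 to 64.6) of enhancer regions carried H3K27ac, against 51.8% (49.6 to 54.1) of excluded regions, and between 2000 and 3000 bp it was 75.8% (74.5 to 77.0) against 69.7% (68.1 to 71.2). Above 5000 bp the intervals of the kinds overlapped again. Over the whole band of 1000 to 3000 bp the H3K4me2 shares were 53.9% of enhancer and 55.7% of excluded regions; 10048 enhancer and 1903 excluded regions lay between 1000 and 1500 bp. Narrow regions were common among H3K4me2 enhancers: 14194 of 28050 were 1500 bp wide or less, or 50.6%, against 14.4% of H3K4me2 excluded regions.

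Single-marked regions were not all narrow. The widest H3K27ac-only enhancer region, chr9:113192176-113216400, spanned 24225 bp with no RSC H3K4me2 within 34.8 kb. ACC H3K27ac, LEC H3K27ac and MEC H3K27ac regions overlapped it, as did ACC H3K4me2, but no LEC or MEC H3K4me2 region did. The widest H3K4me2-only enhancer region, chr2:166486501-166497800, spanned 11300 bp, and H3K27ac regions overlapped it in ACC, LEC and MEC. Among excluded regions the widest with H3K27ac only was chr13:83851976-83886200 at 34225 bp and the widest with H3K4me2 only was chr9:48602126-48646525 at 44400 bp. The nearest RSC region of the other mark was 2.5 kb from the first and 10.4 kb from the second. Both were overlapped by the full lists of both marks in ACC, LEC and MEC. At these 2 places, as at the H3K4me2-only region on chromosome 2, the RSC list alone held no region of the other mark.

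Overlapping regions were mostly of the same kind, more strictly from one side than from the other. Over the full lists, 28050 of 45335 H3K4me2 regions and 23665 of 40399 H3K27ac regions were enhancer regions. Overlapping regions share a position and the rule behind the enhancer lists is not stated. How much of the agreement is built in was therefore not tested. Of H3K27ac enhancer regions with both marks, 95.9% (95.6 to 96.3) met H3K4me2 enhancer regions alone and 519 met H3K4me2 excluded regions alone. Of H3K4me2 enhancer regions with both marks, 88.3% (87.8 to 88.8) met H3K27ac enhancer regions alone, and 1791, or 11.7% (11.2 to 12.2), met H3K27ac excluded regions alone. From the excluded side, 95.9% (95.5 to 96.2) of H3K4me2 regions met H3K27ac excluded regions alone and 89.1% (88.6 to 89.7) of H3K27ac regions met H3K4me2 excluded regions alone. The 814 H3K27ac excluded regions that met H3K4me2 enhancer regions alone had a median width of 5613 bp, and the 577 that met H3K4me2 of either kind had 13400 bp, against 2850 bp for the others.

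Most overlaps joined exactly 1 region of each mark. This held for 12014 of the 13257 H3K27ac enhancer regions with both marks and for 11313 of the 12816 H3K27ac excluded ones. Wide H3K27ac regions spanned several H3K4me2 regions more often than the reverse: 767 H3K27ac enhancer regions overlapped 2 or more H3K4me2 regions, and 84 H3K4me2 enhancer regions overlapped 2 or more H3K27ac regions. The H3K27ac enhancer regions with exactly 2 partners had a median width of 8363 bp, and those with 3 or more had 15850 bp. The extreme was an excluded H3K27ac region of 125900 bp at chr14:64914851-65040750, the widest of all, which overlapped 15 H3K4me2 regions that covered 25.6% of it. The widest H3K27ac enhancer region, chr2:166942826-166995175, spanned 52350 bp and overlapped 5 H3K4me2 regions covering 51.1% of it. LEC and MEC H3K27ac regions overlapped it and no ACC H3K27ac region did, although ACC H3K4me2 was listed there. In the other direction, the H3K4me2 excluded region chr15:68756876-68809225 of 52350 bp overlapped 5 H3K27ac regions, the most for that mark.

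Midpoints of the 2 marks were compared in pairs that joined exactly 1 region of each mark. Such regions overlap by the class rule, so their widths limit the distance between midpoints and some closeness is built in. Over 11829 pairs of enhancer regions the distance between midpoints had a median of 213 bp (200 to 213), with 50% of pairs between 87.5 and 500 bp. It was 500 bp or less in 75.4% of pairs and over 1000 bp in 9.58%. Over 10632 pairs of excluded regions the median was 350 bp (338 to 363), with 17.6% over 1000 bp. The enhancer median was below the excluded median on 19 of 19 autosomes, ranging from 188 to 250 bp in enhancer pairs and from 300 to 425 bp in excluded pairs. Regions of enhancer pairs were also narrower, and the part of width in their lower offset was not tested. All positions lie on a grid of 25 bp, so midpoints move in steps of 12.5 bp. Pairs that joined an enhancer region with an excluded one were farther apart, at a median of 750 bp over 185 pairs with H3K27ac enhancer regions and 775 bp over 681 pairs with H3K27ac excluded regions.

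The offset had no preferred side. The H3K4me2 midpoint lay at the higher coordinate in 49.3% of enhancer pairs and 49.8% of excluded pairs, and exactly on the H3K27ac midpoint in 1.88% and 1.20%. It lay on the side of the nearest H3K27ac excluded region in 5780 of 11602 enhancer pairs that could be assigned a side, or 49.8% (48.9 to 50.7). Above 1000 bp offsets grew with H3K27ac width, more steeply in enhancer pairs, and the order of the kinds turned for wide regions. Up to 1000 bp the median was 138 bp in enhancer pairs and 175 bp in excluded pairs, above the values of the next width step. The largest offset that overlap allows grows with width as well. With H3K27ac regions of 1000 to 1500 bp the median was 113 bp in enhancer pairs and 163 bp in excluded pairs. With 5000 to 10000 bp it was 763 bp in enhancer pairs and 525 bp in excluded pairs, and above 10000 bp it was 2000 bp and 688 bp.

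Which mark was the wider one differed between enhancer and excluded pairs. The class rule did not compare the widths of the 2 marks, but width affects which regions form such pairs. Wide regions overlap the other list more easily, and regions with 2 or more partners, which were wider, were left out. Among single-marked regions H3K27ac had the larger median width in both kinds. It was 1750 against 1250 bp for enhancer regions and 2275 against 1975 bp for excluded regions. The part of this selection in the width order was not tested. In enhancer pairs H3K27ac was wider in 66.0% (65.1 to 66.8), with median widths of 2300 bp for H3K27ac and 1775 bp for H3K4me2 and a median ratio of 1.18 (1.17 to 1.20). In excluded pairs H3K27ac was wider in 26.5% (25.6 to 27.3), with median widths of 2775 bp for H3K27ac and 3725 bp for H3K4me2 and a median ratio of 0.776 (0.769 to 0.784). The share of pairs with wider H3K27ac was higher for enhancer than excluded pairs on 19 of 19 autosomes, with ranges of 62.4% to 70.9% and 22.0% to 32.0% that did not overlap. Nesting followed the same order. H3K4me2 lay wholly inside a wider H3K27ac region in 50.1% (49.2 to 51.0) of enhancer pairs and 17.4% (16.7 to 18.1) of excluded pairs, whereas H3K27ac lay wholly inside a wider H3K4me2 region in 21.8% (21.03 to 22.5) of enhancer pairs and 60.0% (59.0 to 60.9) of excluded pairs. The remaining pairs were staggered, apart from 13 enhancer and 5 excluded pairs with identical ends.

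**Figure D3:**
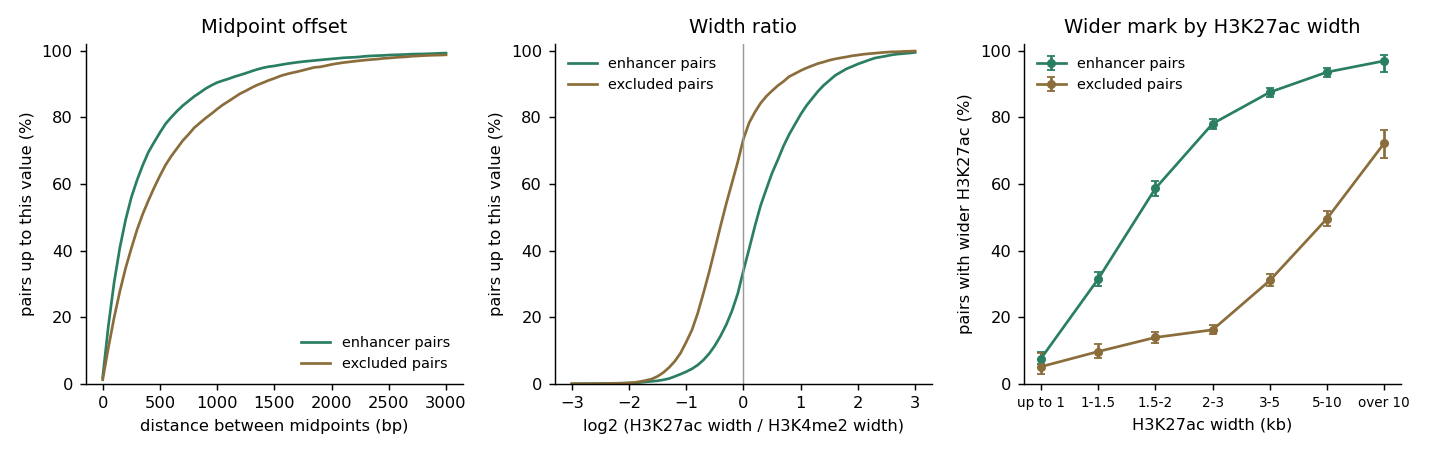
RSC pairs that join exactly 1 region of each mark, for enhancer pairs (green, n = 11829) and excluded pairs (brown, n = 10632). Left, cumulative percentage of pairs by distance between midpoints in bp; middle, cumulative percentage by log2 of the H3K27ac over the H3K4me2 width; right, percentage of pairs with wider H3K27ac by H3K27ac width in kb, with 95% Wilson intervals. Over all widths enhancer pairs lie closer (median 213 against 350 bp), and H3K27ac is wider in 66.0% of them against 26.5% of excluded pairs.

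The difference held at equal H3K27ac width. With H3K27ac regions of 2000 to 3000 bp, H3K27ac was the wider mark in 78.1% (76.5 to 79.6) of enhancer pairs and 16.2% (15.0 to 17.5) of excluded pairs. Their H3K4me2 partners had median widths of 1825 bp in enhancer pairs and 3550 bp in excluded pairs. Up to 1000 bp the shares were 7.57% (5.96 to 9.57) and 5.13% (2.81 to 9.18), whose intervals overlapped. The rule by which the submitters left regions out of the enhancer lists is stated nowhere in the sources used here, and whether it depended on width was not tested.

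The enhancer pair with the largest overlap showed the common arrangement at large scale. At chr15:85490626-85525625 an H3K27ac region of 35000 bp held an H3K4me2 region of 29850 bp, the widest H3K4me2 enhancer region with both marks, and the midpoints were 300 bp apart. The next pair, chr12:21130726-21153150 for H3K27ac, was 22425 bp wide against 18375 bp for H3K4me2, with 18225 bp shared and midpoints 2175 bp apart. All 4 subregions listed both marks at either place. The widest H3K4me2 excluded region with both marks, chr8:87251776-87315300, lay entirely under 1 H3K27ac region.

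Enhancer regions with both marks lay nearer to excluded regions than single-marked ones. The nearest excluded region of either mark was at a median of 25.7 kb (24.9 to 26.8) from H3K27ac enhancer regions with both marks and 34.9 kb (33.5 to 36.3) from those with H3K27ac only. It was at 22.4 kb (21.6 to 23.2) from H3K4me2 enhancer regions with both marks and 37.2 kb (36.0 to 38.2) from those with H3K4me2 only. Part of this is built in, since 538 of the H3K27ac enhancer regions with both marks (4.06%) and 1801 of the H3K4me2 ones (11.7%) overlapped an excluded region of the other mark, at distance 0. Without them the medians with both marks were 27.9 kb (27.1 to 28.9) for H3K27ac and 28.6 kb (27.7 to 29.4) for H3K4me2, still below the single-marked values. When overlaps with excluded regions were instead counted as single-marked, the H3K4me2 ratio of the medians was 1.004 (0.944 to 1.07), an interval that spans 1, whereas it was 0.603 by the class rule.

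Distance to excluded regions of the same mark gave the same order. The class rule did not use it, but excluded regions of the 2 marks largely coincide. Of excluded regions with both marks, 93.6% (H3K27ac) and 98.4% (H3K4me2) overlapped an excluded region of the other mark. The 538 and 1801 enhancer regions that overlapped an excluded region of the other mark also stayed in the both-marked class. For H3K27ac enhancer regions the median was 32.5 kb (31.5 to 33.5) with both marks and 43.2 kb (41.5 to 44.7) with H3K27ac only. For H3K4me2 enhancer regions it was 32.9 kb (32.1 to 33.9) with both marks and 43.8 kb (42.5 to 45.3) with H3K4me2 only. The order held on 19 of 19 autosomes for either mark. The share with both marks was nearly level out to 100 kb for H3K27ac, at 60.2% (57.4 to 62.9) within 2 kb and 58.6% (57.0 to 60.1) between 50 and 100 kb, and was 42.9% (41.2 to 44.7) beyond 200 kb. For H3K4me2 it fell more evenly, from 65.1% (62.1 to 67.9) within 2 kb to 53.8% (52.4 to 55.1) between 50 and 100 kb and 45.6% (43.8 to 47.3) beyond 200 kb. Widths moved with distance too: the median H3K4me2 enhancer width was 1775 bp within 2 kb and 1350 bp beyond 200 kb, and for H3K27ac 2375 and 1900 bp. The part of width in this trend was not tested.

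**Figure D4:**
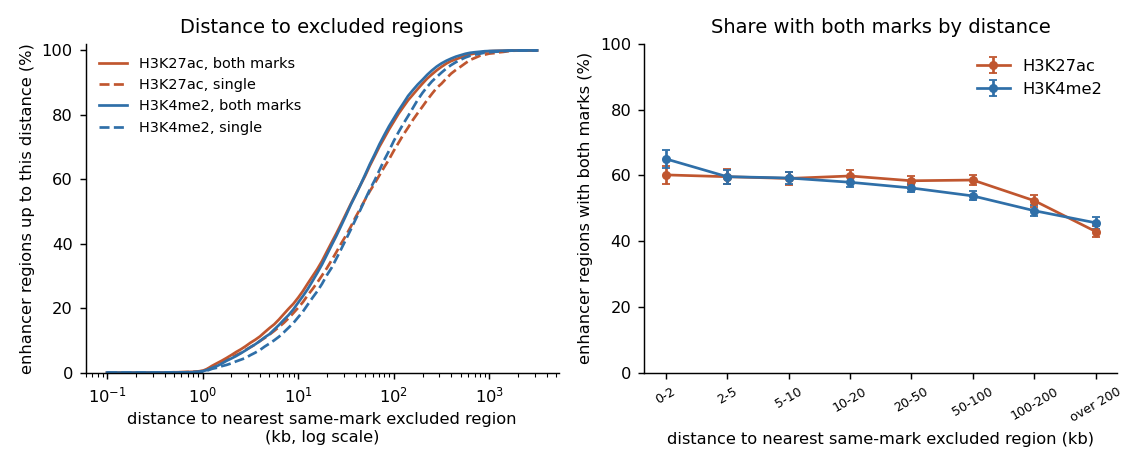
Left, cumulative percentage of RSC enhancer regions by distance in kb (log scale) to the nearest excluded region of the same mark, with both marks (solid) or single-marked (dashed), where the solid curves run to the left of the dashed ones. Right, percentage of RSC enhancer regions with both marks by that distance, with 95% Wilson intervals; it is 60.2% for H3K27ac and 65.1% for H3K4me2 within 2 kb, and 42.9% and 45.6% beyond 200 kb.

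Excluded regions did not repeat this order in both marks. H3K27ac excluded regions with both marks lay farther from the next H3K27ac excluded region, at a median of 19.2 kb (18.5 to 19.7), than those with H3K27ac only, at 13.1 kb (12.2 to 13.9), and did so on 19 of 19 autosomes. H3K4me2 excluded regions with both marks lay nearer to the next H3K4me2 excluded region, at 20.2 kb (19.6 to 20.9), than those with H3K4me2 only, at 24.1 kb (23.1 to 25.2), on 18 of 19 autosomes.

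The most isolated enhancers lay in long stretches with no excluded region. The H3K27ac enhancer region with both marks farthest from any excluded region was chr1:28429476-28430650, 1175 bp wide and 2346 kb away, and its H3K4me2 partner chr1:28429651-28430800 was the farthest for that mark. The farthest H3K27ac-only enhancer region, chr1:28405201-28407400, lay in the same stretch, 22.3 kb from the nearest H3K4me2. ACC and MEC H3K27ac regions overlapped all 3 of these, and no LEC region of either mark did. The farthest H3K4me2-only enhancer region, chr14:91289351-91290175, was 2418 kb from any excluded region and 1424 kb from any RSC H3K27ac region, and was overlapped by no list of another subregion.

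The next enhancer region carried both marks more often after a region with both marks than after a single-marked one. After an H3K4me2 enhancer region with both marks, the next one within 10 kb carried both marks in 77.9% (76.7 to 79.1) of 4777 cases, and after an H3K4me2-only region in 44.6% (42.6 to 46.6) of 2389. Over all H3K4me2 enhancer regions the share was 54.8%. In 33.6% of the pairs of neighbours with both marks the 2 H3K4me2 regions touched the same H3K27ac region. Those pairs shared their class by construction and were not separate observations. For H3K27ac the values were 60.6% (59.1 to 62.1) of 4058 and 50.7% (49.0 to 52.5) of 3082, against 56.02% over all H3K27ac enhancer regions. After an H3K27ac-only region the next one thus did not mostly share its class. Of the H3K27ac neighbours with both marks, 4.11% touched a shared H3K4me2 region.

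The lists of ACC, LEC and MEC, which the class rule did not use, showed whether a class seen in RSC went with the same marks elsewhere. Over all widths, enhancer regions with both marks were listed for the same mark elsewhere more often than single-marked ones, in 3 of 3 subregions. The ACC H3K27ac list overlapped 83.3% (82.6 to 83.9) of RSC H3K27ac enhancer regions with both marks and 62.8% (61.9 to 63.7) of those with H3K27ac only, against 78.3% of all RSC H3K27ac regions. For LEC H3K27ac it was 68.5% and 42.7% against 67.2%, and for MEC H3K27ac 37.2% and 19.6% against 42.1%. For H3K4me2 the classes lay closer: ACC H3K4me2 overlapped 80.4% (79.7 to 81.0) of RSC H3K4me2 enhancer regions with both marks and 70.9% (70.1 to 71.7) of those with H3K4me2 only, against 79.6% of all RSC H3K4me2 regions. The values were 66.8% and 59.1% against 70.8% for LEC H3K4me2, and 30.9% and 22.8% against 44.8% for MEC H3K4me2. No list of the same mark elsewhere overlapped 8.24% (7.79 to 8.73) of the H3K27ac enhancer regions with both marks and 26.4% (25.6 to 27.3) of the H3K27ac-only ones. For H3K4me2 the corresponding shares were 11.1% (10.6 to 11.6) and 16.6% (16.0 to 17.2). Over all RSC regions it was 11% for H3K27ac and 9.65% for H3K4me2.

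In the width band of 1000 to 3000 bp the H3K27ac order held and the H3K4me2 gap narrowed. ACC H3K27ac overlapped 79.7% of RSC H3K27ac enhancer regions with both marks and 63.5% of those with H3K27ac only in this band. ACC H3K4me2 overlapped 80.1% of RSC H3K4me2 enhancer regions with both marks and 75.8% of those with H3K4me2 only, LEC H3K4me2 64.8% and 63.6%, and MEC H3K4me2 27.7% and 25.8%.

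For single-marked enhancer regions, the mark not listed in RSC was mostly not listed elsewhere either. ACC H3K4me2 overlapped 81.5% (80.8 to 82.1) of RSC H3K27ac enhancer regions with both marks but 31.5% (30.6 to 32.4) of those with H3K27ac only, and 67.5% of all RSC H3K27ac regions. LEC H3K4me2 overlapped 69.1% and 22.7% against 59.8%, and MEC H3K4me2 34.4% and 8.25% against 41.3%. ACC H3K27ac overlapped 84.9% (84.3 to 85.4) of RSC H3K4me2 enhancer regions with both marks and 34.6% (33.8 to 35.5) of those with H3K4me2 only, against 67.7% of all RSC H3K4me2 regions. LEC H3K27ac overlapped 70.3% and 27.04% against 60.4%, and MEC H3K27ac 39.7% and 5.79% against 36.3%. Even so, 4042 of the 10408 H3K27ac-only enhancer regions, 38.8% (37.9 to 39.8), met H3K4me2 in at least 1 other subregion, against 76.4% of all RSC H3K27ac regions. Of the 12690 H3K4me2-only ones, 5487, or 43.2% (42.4 to 44.1), met H3K27ac in at least 1, against 77.7% of all RSC H3K4me2 regions. Single-marked excluded regions differed from this: 60.5% (59.0 to 62.1) of those with H3K27ac only met H3K4me2 in at least 1 other subregion, and 67.5% (66.2 to 68.8) of those with H3K4me2 only met H3K27ac.

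**Figure D5:**
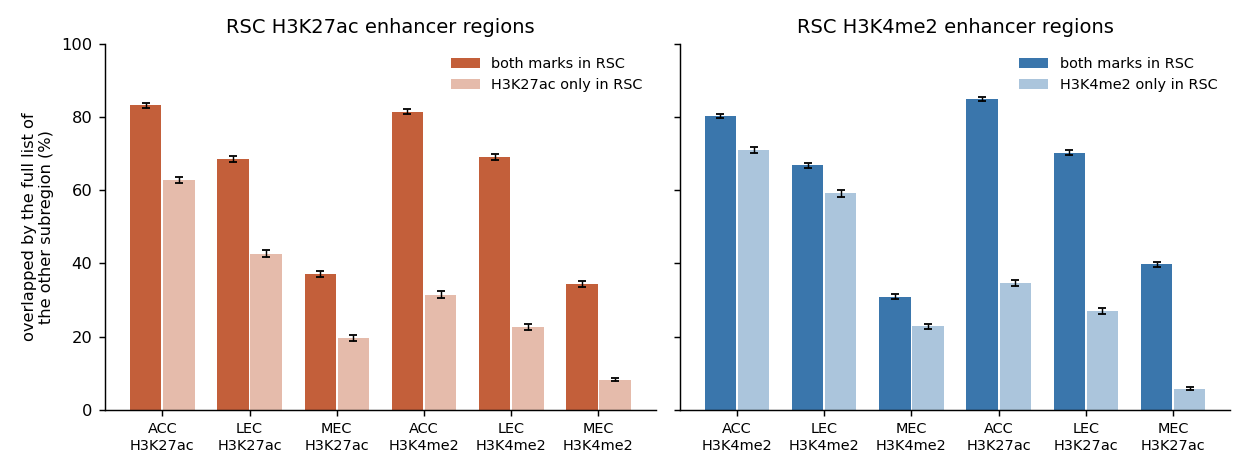
Percentage of RSC enhancer regions overlapped by the full lists of ACC, LEC and MEC, for H3K27ac regions (left panel) and H3K4me2 regions (right panel), with dark bars for both marks in RSC, pale bars for single-marked regions and 95% Wilson intervals. In each panel the same mark's lists come first; dark bars are higher in every pair of bars, by most where the list is of the mark that the pale class lacks, as 81.5% against 31.5% for ACC H3K4me2.

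Restricting to places where the other subregion carried the same mark left the gap. Among RSC H3K27ac enhancer regions that ACC H3K27ac also overlapped, ACC H3K4me2 was listed over 84.5% (83.9 to 85.2) of those with both marks in RSC and 43.2% (42.0 to 44.4) of those with H3K27ac only, against 74.6% of all such RSC H3K27ac regions. With LEC in place of ACC the values were 81.6% and 43.0%, against 75.6%. Among RSC H3K4me2 enhancer regions that ACC H3K4me2 also overlapped, ACC H3K27ac was listed over 87.9% (87.3 to 88.4) of those with both marks and 40.9% (39.9 to 42.0) of those with H3K4me2 only, against 72.5% of all such RSC H3K4me2 regions. With LEC they were 82.7% and 37.04%, against 71.1%.

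The same classes were counted in ACC, with 99966 autosomal regions, and LEC, with 87982. H3K27ac enhancer regions carried both marks in 56.02% in RSC, 63.6% (63.0 to 64.1) in ACC and 63.0% (62.4 to 63.7) in LEC. H3K4me2 enhancer regions did so in 54.8% in RSC, 60.1% (59.5 to 60.6) in ACC and 56.5% (55.9 to 57.1) in LEC. The lists differ in length and unknown depth, with 1 list per group, so the lower RSC values cannot be told apart from differences between libraries. RSC, ACC and LEC had the same width order within pairs, and RSC lay closer to LEC than to ACC. H3K27ac was wider in 66.0% of enhancer and 26.5% of excluded pairs in RSC. The values were 62.8% and 34.3% (33.5 to 35.1) in ACC and 66.8% and 26.9% in LEC. The median offset of enhancer pairs was 213 bp in RSC and 200 bp in both ACC and LEC.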

How the data were processed

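Bowtie 1.1.1, bedtools 2.19.0 and the mm9 build are named in the submitters' processing notes. How peaks were called and how libraries were joined is stated nowhere in the sources used here. The lists hold start and end positions and, as deposited, a score that equalled the region's own width wherever there was one (the MEC H3K27ac list had none), so it carried no enrichment. Of 17 lists 14 were used, and MEC enhancer lists were not needed.

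Overlaps, widths, midpoints and edge-to-edge distances were computed with Python 3.11.15, numpy 2.4.6, scipy 1.17.1 and pandas 2.3.3, and plotted with matplotlib 3.10.9. Shares carry Wilson intervals and medians exact binomial order-statistic intervals, both at 95%. The code was tested on simulated lists with planted classes, offsets and distances, and its class counts (26073 and 27708) equalled those of bedtools 2.31.1. Coordinates are 1-based. Named regions were, per mark, kind and class, the widest; the 2 enhancer pairs sharing most bases; the enhancer regions farthest from excluded regions; and those with most partners. Regions and settings were chosen with earlier results of these data known.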

Additional observations from a re-analysis of the deposited data

Results flagged for a closer look

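The width order of the marks ran in opposite directions in enhancer and excluded pairs of RSC: the median ratio of H3K27ac to H3K4me2 width was 1.18 in enhancer pairs and 0.776 in excluded pairs. Pairs are selected by overlap, which depends on width. Single-marked excluded regions did not show the order of excluded pairs, with medians of 2275 bp for H3K27ac and 1975 bp for H3K4me2. The lists hold no values per library, so the difference between enhancer and excluded pairs was not tested over animals.

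Regions outside the autosomes were left out of the classes. On chromosome X the RSC lists held 1175 H3K27ac regions and 1210 H3K4me2 regions, of which 63.3% and 63.4% carried both marks. On chromosome Y they held 10 H3K27ac regions and 7 H3K4me2 regions, 5 and 4 of them with both marks, and the sex of the animals is stated nowhere in the labels.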

How the results depend on the processing

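In all, 9 results were recomputed under up to 8 alternatives, giving 65 values, of which 37 stayed within the interval of the reported value. Adding chromosome X, asking for 50% of the shorter region, or counting regions within 1000 bp as sharing moved none of the 9 beyond its interval. With the widest 50% of each list, the share with both marks was 46.0% and 73.6% for H3K27ac enhancer and excluded regions. For H3K4me2 it was 60.4% and 55.6%, so the H3K4me2 order of the kinds turned round. Narrow partners were removed too, so these are not the shares of wide regions with all their partners kept. The width ratios of both-marked to single-marked enhancer regions were 1.28 (H3K27ac) and 1.26 (H3K4me2), the offset 350 bp and the H3K27ac distance ratio 0.598. With regions of 1000 to 3000 bp, the shares were 52.0%, 71.9%, 53.9% and 55.7% in the same order, the width ratios 1.07 (H3K27ac) and 1.24 (H3K4me2), the offset 150 bp and the H3K27ac distance ratio 0.815. With partners of the same kind only, the shares were 53.8%, 71.7%, 48.4% and 70.3%, the H3K4me2 width ratio 1.38, the H3K27ac distance ratio 0.890 and the H3K4me2 distance ratio 1.004 (0.944 to 1.07), an interval that spans 1. There the difference was lost, as overlaps with excluded regions at distance 0 became single-marked by construction. Measured to the same mark, the H3K4me2 distance ratio was 0.752. With single-marked regions set aside where ACC, LEC and MEC all list the other mark, chosen after seeing the data, the shares were 57.0%, 81.1%, 55.5% and 74.98%. That setting removes single-marked regions only, so the shares could only rise. No paired analysis was possible because each list combines its libraries and no column carries a replicate, and for the same reason no replicate could be left out. Depth is unknown.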
